A study of Mus musculus with 14 samples.

Results

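Memory B cells were compared with germinal center B cells across all genes on arrays. The comparison took the 4 arrays titled as memory B cells and the 3 titled as germinal center B cells, 7 of the 14 arrays of the series, and 18193 genes, each represented by its brightest probe set. Both subsets were sorted from spleens of male C57Bl/Ka mice that had received 100 µg of NP-CGG, the hapten nitrophenyl coupled to chicken gamma globulin, in alum into the peritoneum. Memory cells were taken 10 to 12 weeks later, at an age of 14 to 18 weeks, and gated as B220+, NP-binding, lambda+ and CD38-high without IgM, IgD or PNA. Germinal center cells were taken at day 14, at an age of 6 to 10 weeks, and gated as B220+, NP-binding, lambda-low, CD38-low and PNA+ with little or no IgM. Both sorts left out cells carrying CD11b, Ter119, Gr-1, CD3, CD4, CD5 or CD8. Time after immunization and age differ together with the subset and cannot be told apart from it. The 3 arrays of naive B cells from unimmunized mice of the same strain, aged 4 to 8 weeks, are given beside the values for their level only. No label ties a replicate to an animal of its own, and the p-values therefore cover the scatter of these arrays, which can be technical.

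A germinal center is the site in a follicle where B cells that met antigen divide, mutate their antibody genes and are selected for binding, under the repressor Bcl6. Memory B cells are long-lived cells that leave this reaction, stop dividing, recirculate or wait in the follicle and respond quickly to a later encounter. Positioning in the follicle depends on receptors for sphingosine 1-phosphate, oxysterols and chemokines, and survival depends on the balance of BCL2 family proteins.

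Values are array intensities on a linear scale, and differences are memory minus germinal center on the log2 scale with their standard errors. Intensities of different genes come from different probes and were not compared with each other. A gene passed at a Benjamini-Hochberg adjusted p under 0.05 in limma, fitted on all 14 arrays. The background of an array, set by the highest of 27 unspiked bacterial controls, lay between 11.0 and 14.6 on memory arrays and between 13.7 and 14.7 on germinal center arrays. Where the lower subset lay above it on no array, a fold is given as a lower bound ("at least N-fold"). In sorted populations, fewer cells of a type and less RNA per cell cannot be told apart.

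Of the 18193 genes 4084 passed, 22.4% of those tested. Of these, 1994 rose (11.0% of all genes) and 2090 fell (11.5%), so that 48.8% of the calls were higher in memory cells. At least 2-fold changes made up 2458 of the calls, 13.5% of all genes, with 1320 higher and 1138 lower. The arrays of the subsets did not overlap for 3689 of the genes that passed (90.3%). Without the 361 genes of the mitosis and S phase lists or with symbols of division gene families, of which 233 fell and 11 rose, 1983 genes still rose and 1857 fell. Among genes outside this set that changed at least 2-fold, 1312 rose and 924 fell. The symbols also take in genes with other roles, such as Cdc42 and Kif5b, so the set only approximates the division genes. Over all genes the median difference was -0.08, and over 6116 genes with a mean log2 intensity of at least 6 it was 0.05. Counts of gene lists below are to be read beside the shares of all genes, 11.0% higher and 11.5% lower.

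**Figure D1:**
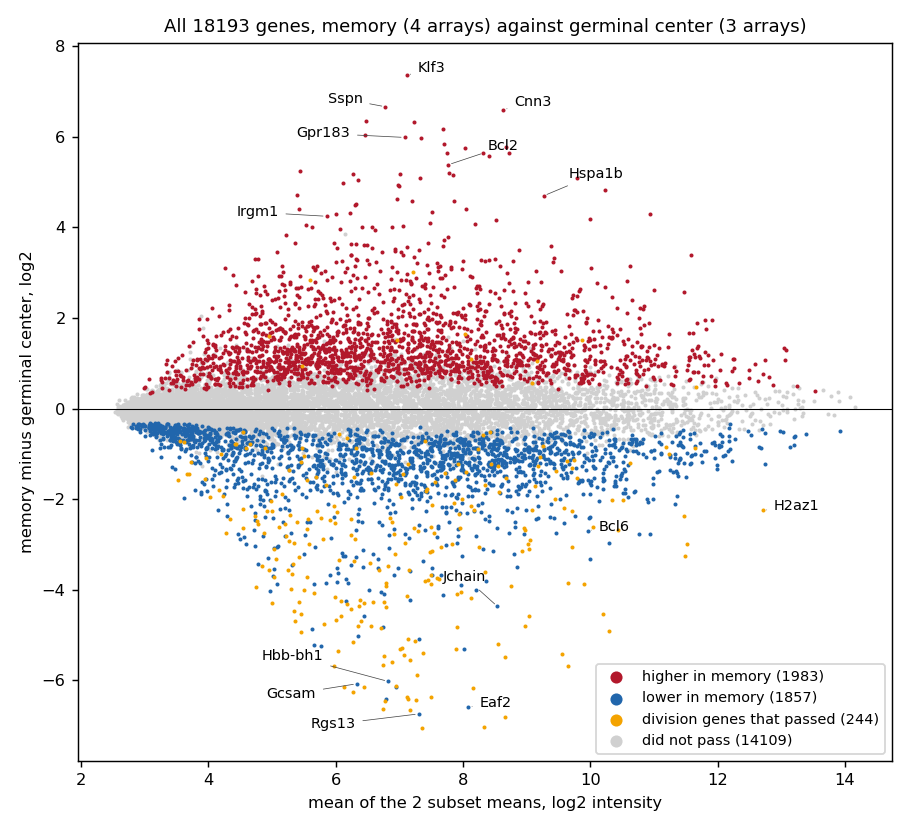
Difference between memory and germinal center cells on the log2 scale (vertical axis) against the mean of both subset means as log2 intensity (horizontal axis), with 1 point per gene. Red genes rose (1983), blue genes fell (1857), orange points are genes of the division set, chosen by list or symbol, that passed, and grey genes did not pass. Klf3 lies highest, and the lowest region holds division genes together with Rgs13 and Eaf2.

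Ratios of control probe sets that reflect RNA quality differed between the subsets, in opposite directions for actin and GAPDH. The ratio of the 3' to the middle actin control probe set, which grows as fewer long copies are labelled, was 5.33, 4.15, 4.61 and 4.43 on memory arrays 1 to 4, against 10.1, 17.6 and 6.11 on germinal center arrays 1 to 3. The same ratio for the GAPDH controls ran the other way, from 11.0 to 13.0 on memory arrays and from 8.23 to 10.9 on germinal center arrays. With the actin ratio as a covariate 1779 genes passed, of which 1644 were among the 4084 in the same direction, and 35.6% of the 1779 were higher in memory cells. Without germinal center array 2, which has the highest ratio, 3763 genes passed. The counts of the gene groups with this covariate are given beside them, because the ratio does not overlap between the subsets. The GAPDH ratio did not overlap either and was not used as a covariate. A call lost with the covariate can keep its difference or not. Cd37 differed by 2.65 without it and 2.66 with it, Birc2 by 0.75 and 0.34. The median of the oxidative phosphorylation list was -0.93 and -0.98, that of the MHC class II list 0.99 and 0.66. The part of the actin ratio in the results was not tested further.

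**Figure D2:**
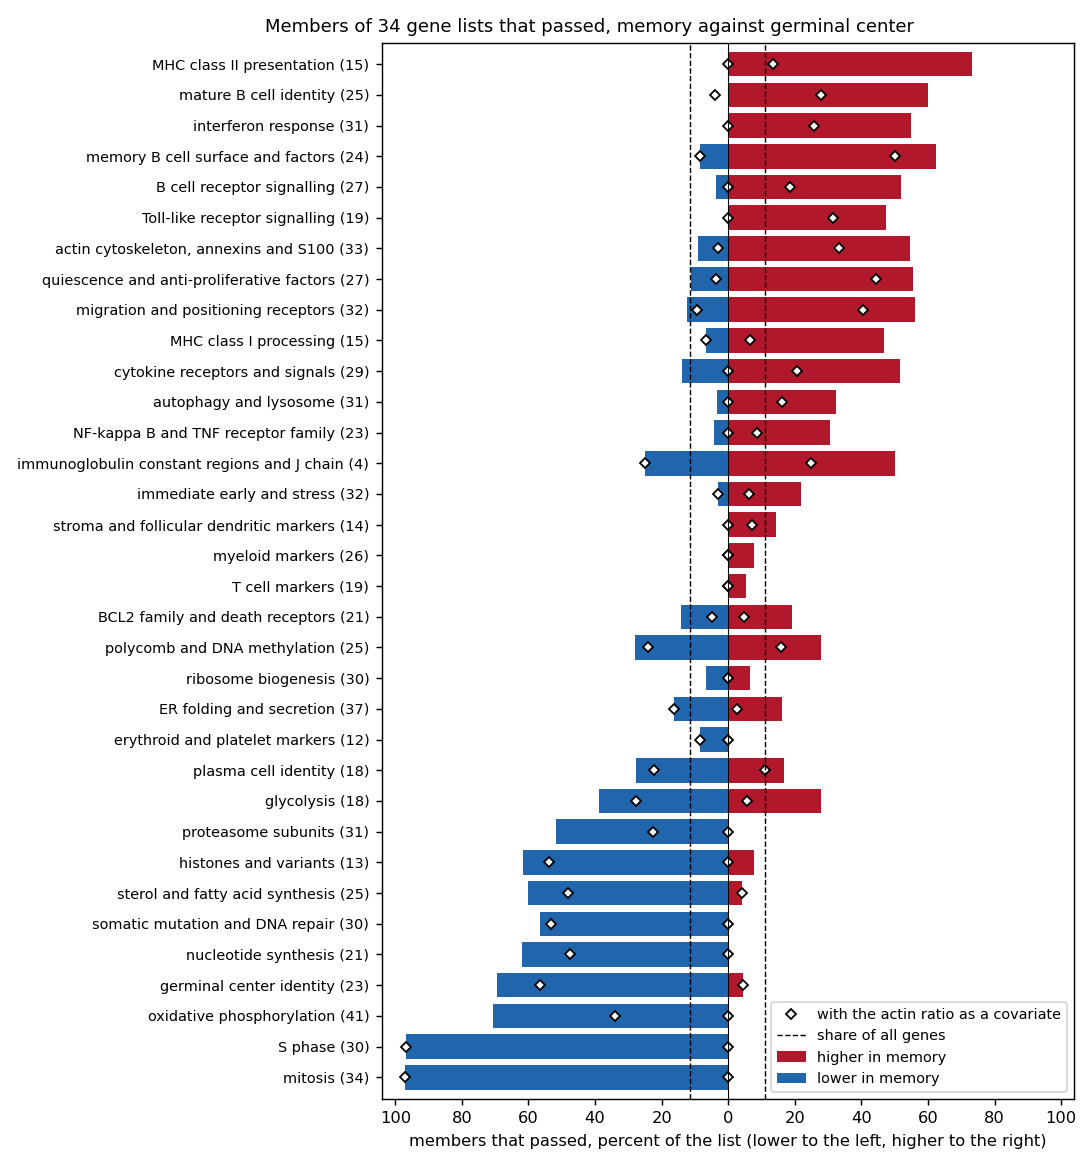
Percent of the measured members of each of 34 gene lists that were higher (red, to the right) or lower (blue, to the left) in memory than in germinal center cells, with the number of members in brackets. Dashed lines mark the share of all genes that passed in that direction, 11.0% higher and 11.5% lower, and diamonds mark the share with the actin ratio as a covariate. Lists of division, repair and synthesis genes extend to the left, and lists of receptor, presentation and positioning genes to the right.

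The largest rise of all genes that passed belonged to Klf3, a Krüppel-like repressor of B cell activation and proliferation genes. Klf3 had 1621, 1589, 1838 and 2116 in memory cells, against 9.27, 9.31 and 14.8 in germinal center cells (7.36 ± 0.26, adjusted p = 2.11e-10). Germinal center cells were above background on 1 of 3 arrays, and all memory arrays lay more than 100-fold above them, beside 2059.9 in naive cells. Klf3 has 6 other probe sets, 3 of which passed in the same direction with differences no larger than 1.40, so the size of the rise depends on the probe set. Cnn3, an actin-binding calponin, had 4047, 3666, 4102 and 3851 in memory cells and 21.4, 60.1 and 51.2 in germinal center cells (6.60 ± 0.29, adjusted p = 1.25e-09). All 5 of its other probe sets rose too. Plac8 (6.32 ± 0.22), the nuclear body gene Pml (6.16 ± 0.20) and the kinase gene Sbk1 (5.74 ± 0.38) followed with non-overlapping arrays. Kctd14 was higher at least 56.8-fold and Tent5a, which encodes a poly(A) polymerase, at least 50.6-fold. Other probe sets of Pml rose by only 1.26 and 3.06. Those of Kctd14 rose by 5.40 and 5.93, but another, above background on all 7 arrays, differed by 0.03.

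Sspn, which encodes the membrane protein sarcospan of the muscle dystrophin complex, separated memory cells from both other subsets in level. It had 1118, 780.3, 1917 and 898 in memory cells, against 13.0, 10.9 and 9.17 in germinal center cells, so that it was at least 78.2-fold higher. The naive mean was 12.4, and memory minus naive was 6.48 ± 0.39. S100a10, an S100 family partner of annexin, had 2375, 1271, 1492 and 1381 in memory cells and 52.7, 13.1 and 30.0 in germinal center cells (5.85 ± 0.40, adjusted p = 1.02e-07), with a naive mean of 1450.2. Among all genes 5.57% passed in memory against naive cells and 19.5% in germinal center against naive cells in the same fit. These 3 comparisons share arrays, so only levels are set side by side here.

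Genes that hold cells out of division were more often higher than lower in memory cells. Of 27 measured quiescence and anti-proliferative genes 15 rose, 3 fell and 9 did not pass, with a median of 1.23, beside 11.0% of all genes that rose. With the actin covariate 12 rose and 1 fell. Klf2, a factor of quiescence and of homing, had 588, 762, 861 and 692 in memory cells, against 24.3, 32.8 and 33.8 in germinal center cells (4.58 ± 0.30, adjusted p = 6.6e-08). Pdcd4, which restrains translation, had 1739, 1541, 1302 and 1706 in memory cells and 109, 74.5 and 81.0 in germinal center cells (4.17 ± 0.21, adjusted p = 4.52e-09). Txnip, a brake on glucose uptake, rose by 3.14 ± 0.20. Both genes gave 4 memory arrays far above all germinal center arrays. Against the list, the CDK inhibitor gene Cdkn2c fell (-2.98 ± 0.17), as did Mxd4 (-0.99 ± 0.23) and Foxo1, a factor also needed in germinal centers (-0.85 ± 0.16). The calls of Mxd4 and Foxo1 were lost with the actin covariate (adjusted p = 0.595 and 0.114).

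Transcription factors divided. Hhex, a homeobox factor needed for memory B cells in mice, had 1426, 2409, 3354 and 2631 in memory cells, against 27.5, 37.2 and 116 in germinal center cells (5.58 ± 0.38, adjusted p = 1.04e-07). Its naive mean was 3668, so memory and naive cells both lay well above all germinal center arrays. Irf4, which acts in activation and in plasma cell fate, rose by 3.15 ± 0.31. Foxp1, which restrains the germinal center program, rose by 2.56 ± 0.26, and Tbx21, the factor of interferon gamma responses, by 1.01 ± 0.18. Bcl6 had 274, 413, 356 and 583 in memory cells and 2081, 2553 and 3061 in germinal center cells (-2.69 ± 0.24, adjusted p = 1.36e-06). The naive mean of Bcl6 was 1410.4, above every memory array. Bach2, a repressor of plasma cell fate, fell (-1.65 ± 0.35) on its brightest probe set, but with the median of its probe sets the difference was -0.011. Pax5 did not pass on the probe set used (0.54 ± 0.23, adjusted p = 0.112, 95% interval 0.05 to 1.02), but its other probe set and the median of both passed as higher (median 0.68, adjusted p = 0.0103). Prdm1, the plasma cell repressor, was higher at least 1.43-fold, with germinal center cells above background on no array and the call lost with the actin covariate.

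**Figure D3:**
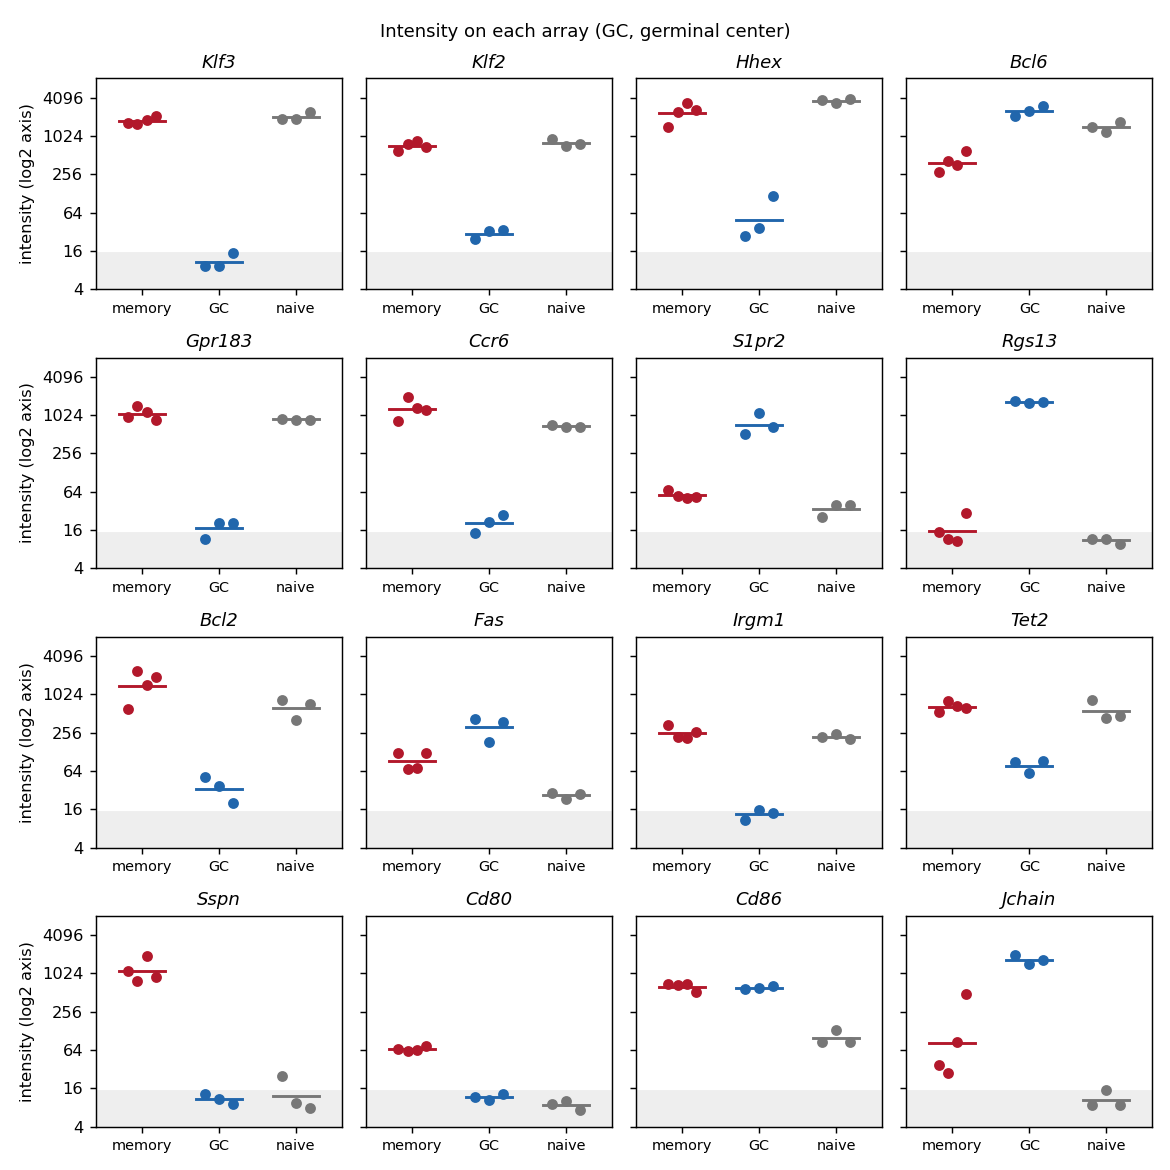
Intensity on each array for 16 genes on a log2 axis, with memory arrays in red (left), germinal center arrays in blue (middle) and naive arrays in grey (right). Lines mark subset means on the log scale, and the grey band ends at the highest background of the 10 arrays. Memory and naive arrays lie together above germinal center arrays for Klf3, Klf2 and Hhex, memory stands apart for Sspn and Cd80, and Cd86 did not pass between memory and germinal center cells.

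The germinal center program was low in memory cells. Of 23 measured germinal center genes 16 fell, 1 rose and 6 did not pass, with a median of -1.74, and 13 fell with the actin covariate. Rgs13, which dampens chemokine receptor signals, had 14.9, 11.5, 10.7 and 29.8 in memory cells, against 1726, 1560.4 and 1623 in germinal center cells (-6.74 ± 0.27, adjusted p = 5.12e-10). Memory cells lay above background on 2 of 4 arrays, and every germinal center array lay far above all of them. Eaf2, an elongation factor gene, had 15.8, 38.0, 33.5 and 29.2 in memory cells and 3830.2, 1848 and 2685 in germinal center cells (-6.59 ± 0.34, adjusted p = 6.47e-09). Gcsam, a signalling adaptor of germinal center cells, was at least 53.7-fold lower in memory cells. The cell cycle regulator gene Rgcc fell by 6.42 on the log2 scale. Lmo2, a LIM factor, was the only member of the list to rise, with 5888, 4962, 5774 and 5788 in memory cells and 2045, 1199 and 2176 in germinal center cells (1.68 ± 0.22, adjusted p = 6.53e-05). Fas, a death receptor, had 121, 69.7, 70.4 and 124 in memory cells, against 425, 182 and 379.9 in germinal center cells (-1.74 ± 0.30, adjusted p = 0.0006), and its naive mean of 26.4 was below every memory array.

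Among the genes that fell most outside the division list were Cttn, the actin regulator cortactin (-6.15 ± 0.37), Endou, an RNA endonuclease gene (-5.32 ± 0.38), and Ada, adenosine deaminase (-5.09 ± 0.29). Cttn has 4 other probe sets, of which 1 passed, and its call was lost with the median of all probe sets. Gpsm2, which orients the spindle, was at least 25.0-fold lower and Gas2l3, which acts at the midbody, at least 21.7-fold. Lrr1 was lower by at least 27.2-fold and Fignl1, a recombination gene, fell by 4.82 on the log2 scale. Some of these genes are known to act in division although their symbols did not place them there.

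Hbb-bh1, an embryonic beta-like globin gene, had 11.5, 12.9, 13.9 and 19.0 in memory cells, against 917, 1086 and 766 in germinal center cells (-6.02 ± 0.22, adjusted p = 2.14e-10). The naive mean was 15.2, and both other probe sets of the gene fell in the same direction. No other red cell or platelet marker passed, with or without the actin covariate. Of 12 such markers Hbb-bh1 alone passed, the rest summed to between 144 and 152 on memory arrays and between 148 and 180 on germinal center arrays, and Hba-a1, Hbb-b2, Alas2, Gata1 and Ppbp were at background on all 7 arrays.

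Most genes of migration and positioning were higher in memory cells, and 4 were lower, the receptor gene S1pr2 and the intracellular regulators of G protein signals Rgs2, Rgs10 and Rgs13. Of 32 measured migration and positioning genes 18 rose, 4 fell and 10 did not pass, with a median of 0.98, and 13 rose with the actin covariate. Gpr183, the oxysterol receptor that draws B cells to the outer follicle, had 974, 1423, 1141 and 865 in memory cells, against 11.8, 20.5 and 20.6 in germinal center cells (5.99 ± 0.21, adjusted p = 2.14e-10). The chemokine receptor gene Ccr6 had 842, 1957, 1338 and 1242 in memory cells and 14.5, 21.1 and 28.1 in germinal center cells (5.97 ± 0.25, adjusted p = 7.37e-10). The naive means were 876 for Gpr183 and 685 for Ccr6, both far above the germinal center arrays. Itgb7, an integrin chain of gut homing, rose by 4.40 ± 0.28, Ccr7, the receptor that leads cells toward the T cell zone, by 3.65 ± 0.31, and S1pr1, the exit receptor, by 3.31 ± 0.34. S1pr2, which confines cells to the follicle, had 69.5, 54.3, 51.2 and 52.6 in memory cells, against 519, 1090.0 and 669.7 in germinal center cells (-3.68 ± 0.22, adjusted p = 2.94e-08). Rgs10 fell with it (-3.21 ± 0.33). Rgs2 passed as lower (-1.83 ± 0.53) although memory array 4, at 3347, lay among the germinal center arrays, and the call was lost without any 1 of 5 other arrays. Cxcr5, the follicle receptor, rose by 1.52 ± 0.33 on the arrays as given, a call lost with the actin covariate (adjusted p = 0.126). Cxcr4, the dark zone receptor, did not pass (-0.43 ± 0.40, adjusted p = 0.506, 95% interval -1.29 to 0.43).

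Most survival genes did not pass, but Bcl2 rose. Of 21 measured BCL2 family and death receptor genes 4 rose, 3 fell and 14 did not pass, with a median of -0.10, and 1 rose and 1 fell with the actin covariate. Rises made up 19.0% and falls 14.3% of this list, beside 11.0% and 11.5% of all genes. Counts of rises lay between 2 and 6 when single arrays were left out. Bcl2, which blocks mitochondrial death, had 594, 2410.3, 1418 and 1921 in memory cells, against 51.3, 37.1 and 20.1 in germinal center cells (5.38 ± 0.43, adjusted p = 4.7e-07). The memory arrays spread more than 4-fold, but all were above the highest germinal center array more than 10-fold. Of its 4 other probe sets 3 rose, and the median over probe sets was 5.11. Mcl1, another anti-death member, did not pass on the probe set used (0.27 ± 0.15, adjusted p = 0.228, 95% interval -0.05 to 0.59), but 2 of its 5 other probe sets passed as higher, and the median of its probe sets did too (0.64, adjusted p = 0.00611). Bcl2l1 did not pass (-0.52 ± 0.19, adjusted p = 0.0728, 95% interval -0.94 to -0.10). Birc3 and Birc2, inhibitors of apoptosis, rose by 1.14 ± 0.17 and 0.75 ± 0.24, both lost with the actin covariate. Birc3 lost its call under that alternative alone, Birc2 under 7 of 18. The pro-death gene Pmaip1 rose too (1.08, adjusted p = 0.037), a call lost under 8 alternatives, the covariate among them. The 3 members that fell were Fas, Bad (-0.84) and Bik, and the call of Bad was lost with the covariate. Bik lay above background on no array of either subset, so no size is given for it. Its call was lost under 12 of 17 alternatives, the covariate among them. The BAFF receptor gene Tnfrsf13c had 4202, 3240.0, 3848 and 4169 in memory cells and 3564, 3678 and 4258 in germinal center cells, and did not pass (0.01 ± 0.12, adjusted p = 0.972, 95% interval -0.25 to 0.27). Tnfrsf13b, the receptor TACI, rose by 2.21 ± 0.33, and this call was lost with the actin covariate.

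**Figure D4:**
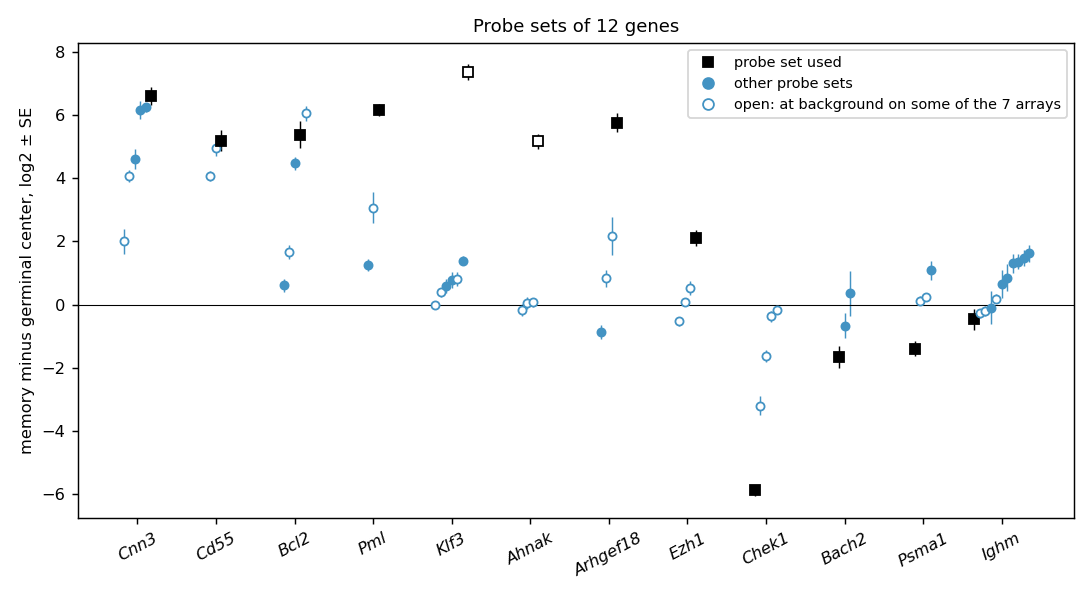
Difference between memory and germinal center cells (log2 ± SE) for each probe set of 12 genes, with black squares for the probe set used and blue circles for the others. Open symbols lay at background on some of the 7 arrays. Cnn3, Cd55 and Bcl2 keep the same direction over their probe sets, Klf3 and Ahnak have 1 large value and small others, and Psma1 has probe sets on both sides of 0.

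Surface genes and transcription factors known from memory B cells were more often higher than lower. Some members of this list were chosen from these same arrays, so its count is no independent evidence. Of 24 measured members 15 rose, 2 fell and 7 did not pass, with a median of 1.27, and 12 rose with the actin covariate. When germinal center array 2 was left out, 4 members fell. Cd80, a costimulatory ligand, had 67.6, 61.5, 64.5 and 75.1 in memory cells, against 11.7, 10.4 and 13.1 in germinal center cells, where it was above background on no array, and was at least 4.73-fold higher. Its 3 other probe sets did not pass and were at or near background. Pdcd1lg2, the ligand PD-L2, rose by 2.26 ± 0.24, with naive cells at 26.5. Cd55, which protects from complement, had 1059, 387, 729.7 and 1218 in memory cells and 16.5, 19.1 and 30.6 in germinal center cells (5.19 ± 0.33, adjusted p = 4.72e-08), and 2 other probe sets rose too. Nt5e, the ectoenzyme CD73, had 156, 61.8, 98.6 and 88.0 in memory cells and 151, 51.2 and 133 in germinal center cells and did not pass (-0.08 ± 0.34, adjusted p = 0.9, 95% interval -0.80 to 0.64), while its naive mean was 6.81. Cd86, another costimulatory ligand, did not pass either (0.07 ± 0.19, adjusted p = 0.833, 95% interval -0.33 to 0.48), with 638 in memory cells, 607 in germinal center cells and 99.7 in naive cells. Lmo7 fell (-1.35 ± 0.38), with all memory arrays above the naive mean of 8.07, and its call was lost with the actin covariate and without germinal center array 3 or memory array 2.

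Antigen receptor signalling genes and genes of mature B cell identity were higher in memory cells. Of 25 measured identity genes 15 rose, none fell and 10 did not pass, with a median of 1.16, but 7 rose with the actin covariate. All 25 lay above background on every memory array and 24 on every germinal center array. Their summed intensity ran from 60341 to 64167 on memory arrays and from 28805 to 42992 on germinal center arrays. Bank1, an adaptor of the receptor, had 6626, 7699, 8262 and 7949 in memory cells, against 1624, 1738 and 2639.8 in germinal center cells (1.96 ± 0.21, adjusted p = 7.42e-06). Cd37 rose by 2.65 ± 0.50, lost with the actin covariate. The complement receptor gene Cr2 had 3194, 3981, 3076 and 3670.3 in memory cells and 1209, 1314 and 1603 in germinal center cells (1.34 ± 0.15, adjusted p = 1.23e-05), and Fcer2a, the antibody receptor CD23, rose by 1.50 ± 0.31, lost with the covariate. Of 27 receptor signalling genes 14 rose, 1 fell and 12 did not pass, with a median of 0.92, and 5 rose with the covariate. Ptpn22, a phosphatase of receptor signals, had 325, 371, 265 and 203 in memory cells, against 12.0, 17.5 and 14.4 in germinal center cells (4.30 ± 0.26, adjusted p = 2.45e-08). Malt1, which carries the signal to NF-kappa B, rose by 2.59 ± 0.27, and the kinase gene Blk by 1.77 ± 0.18. Pik3ap1, which feeds the phosphoinositide 3-kinase path, was the member that fell (-0.61 ± 0.16), a call lost with the actin covariate and without germinal center array 2 or 3. Ptprc, whose isoform B220 marked both sorts, differed by only 0.51 ± 0.17, a call lost when any 1 of 5 of the 7 arrays was left out.

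Presentation genes of both MHC classes were more often higher than lower. Of 15 class II and costimulation genes 11 rose and 4 did not pass, with a median of 0.99, beside 2 with the actin covariate and 7 with the median of all probe sets. H2-Ab1 had 4296, 4689, 5838 and 6366 in memory cells and 2244, 1385 and 2834 in germinal center cells (1.34 ± 0.21, adjusted p = 0.000273). The invariant chain gene Cd74 rose by 1.52 ± 0.33 and H2-Oa, which tunes peptide loading, by 1.25 ± 0.19. The calls of Cd74 and H2-Ab1 were lost with the covariate, that of H2-Oa was not. That of H2-Ab1 was also lost with the median of all probe sets. The other H2-Ab1 probe sets, above background on all 7 arrays, differed by 0.64 and 1.06 and did not pass. Cd40, the receptor for T cell help, did not pass (0.51 ± 0.34, adjusted p = 0.329, 95% interval -0.22 to 1.25). Of 15 class I genes 7 rose, 1 fell and 7 did not pass, with a median of 0.41, and 1 rose with the covariate. H2-D1 rose by 2.78 ± 0.32 and H2-K1 by 2.19 ± 0.37, on probe sets that near-identical class I genes can share, and the light chain gene B2m by 1.81 ± 0.31. Of these calls H2-D1 stayed with the covariate. Psme1, an immunoproteasome activator, was the member that fell (-0.80 ± 0.24), with overlapping arrays.

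Interferon-stimulated genes, which act against viruses and intracellular microbes, were higher in memory cells. Of 31 measured members 17 rose, none fell and 14 did not pass, with a median of 0.82, beside 8 with the actin covariate. When germinal center array 2 was left out, 14 rose. The list median in memory against naive cells, which shares the memory arrays, was -0.34. Irgm1, an immunity-related GTPase, had 341, 218, 213 and 258 in memory cells, against 10.7, 15.6 and 14.2 in germinal center cells (4.25 ± 0.20, adjusted p = 2.69e-09). Gbp7, a guanylate-binding protein gene, had 302, 148, 132 and 216 in memory cells and 8.98, 13.3 and 12.1 in germinal center cells, and was at least 13.3-fold higher. Ddx58, the RNA sensor RIG-I, had 311, 345, 426 and 326 in memory cells and 38.0, 26.9 and 32.0 in germinal center cells (3.45 ± 0.14, adjusted p = 7.37e-10). In all 3 genes every memory array lay well above every germinal center array. Irgm2 rose by 2.20 ± 0.30, lost with the covariate.

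The promoters of the interferon list were read for the core of the interferon-stimulated response element, the site bound by interferon-activated factors, because 17 of its members rose and none fell. The letters searched were GAAA, any 2 bases and GAAA again, on either strand, in the 300 bases of RefSeq promoters that run from 250 before to 50 after the gene's start (GRCm38.p6). Of the 31 members 23 had a promoter in the table, and 14 of these held the letters (60.9%), beside 3.63% of the 14452 measured genes with a promoter and 3.44% of all 32851 promoters. Among the members with a promoter, 9 of 13 that rose and 5 of 10 that did not pass held them. A match is a description of the letters, not of binding. The 4 windows printed here belong to the members that rose most with a match before their start, with matches in capitals, overlapping matches run together, and the gene strand written 5′ to 3′. Irgm1 lies on the minus strand at chr11:48871421-48871470, Gbp7 on the plus strand at chr3:142530263-142530322, Irgm2 on the plus strand at chr11:58214893-58214952 and Igtp on the plus strand at chr11:58199502-58199555.
Irgm1: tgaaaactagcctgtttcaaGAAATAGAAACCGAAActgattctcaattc
Gbp7: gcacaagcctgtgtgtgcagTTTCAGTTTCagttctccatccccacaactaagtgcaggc
Irgm2: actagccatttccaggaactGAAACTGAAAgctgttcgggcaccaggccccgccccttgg
Igtp: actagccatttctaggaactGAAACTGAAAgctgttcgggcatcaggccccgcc

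In these windows the first matched base lay 30 bases before the start of Irgm1, 53 before that of Gbp7, 64 before that of Irgm2 and 34 before that of Igtp. Gbp7 holds the match on the opposite strand, and Irgm1 holds 2 overlapping matches.

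Other innate receptors followed the same direction. Of 19 Toll-like receptor genes and adaptors 9 rose, none fell and 10 did not pass, with a median of 0.55, and 6 rose with the actin covariate. Irak3, an inhibitor of these signals, had 218, 176, 264 and 149 in memory cells, against 9.60, 11.2 and 7.50 in germinal center cells, at least 13.9-fold higher. Tlr7, a sensor of single-stranded RNA, rose by 1.76 ± 0.16 and Tlr2, a sensor of bacterial lipoproteins, by 2.15 ± 0.23. Of 23 NF-kappa B and TNF receptor genes 7 rose, 1 fell and 15 did not pass, with a median of 0.51, and 2 rose with the covariate. Rela, a subunit of NF-kappa B, had 945, 724, 1149 and 899 in memory cells and 242, 298 and 561 in germinal center cells (1.42 ± 0.25, adjusted p = 0.000888), lost with the covariate. Rel, another subunit, was the member that fell (-0.91 ± 0.31), with overlapping arrays and the call lost under most alternatives. Of 29 cytokine receptor and signal genes 15 rose, 4 fell and 10 did not pass, with a median of 0.86, and 6 rose and none fell with the covariate. Ifngr2, the interferon gamma receptor chain, had 741, 382, 385 and 459.8 in memory cells, against 35.2, 60.2 and 62.2 in germinal center cells (3.22 ± 0.32, adjusted p = 4.66e-06). Socs3, an inhibitor of cytokine signals, rose by 2.76 ± 0.35, Stat4 by 2.75 ± 0.14 and Il6ra, the interleukin 6 receptor, by 2.61 ± 0.18. Naive cells had 31.5 for Il6ra, below every memory array. The other Il6ra probe set, above background on all 7 arrays, differed by 0.09 between memory and germinal center cells and did not pass. The 4 members that fell, Il21r, Tgfbr1, Il2ra and Jak3, had differences between -0.49 and -0.78. Il21r lost its call under 2 of 18 alternatives, Jak3 under 10 of 18, Tgfbr1 under 11 of 18 and Il2ra under 12 of 17. The Il2ra probe set used was above background on only 2 of the 7 arrays.

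Genes of the somatic mutation and repair machinery were lower in memory cells, and some of them also belong to the division set. Of 30 measured members 17 fell, none rose and 13 did not pass, with a median of -1.07, and 16 fell with the actin covariate. Rad51ap1, a recombination partner, had 16.5, 13.2, 9.91 and 22.1 in memory cells, against 809.6, 978 and 1375 in germinal center cells (-6.12 ± 0.34, adjusted p = 1.54e-08). The checkpoint kinase gene Chek1 had 27.7, 16.6, 20.9 and 17.0 in memory cells and 1217, 1226 and 1131 in germinal center cells (-5.89 ± 0.19, adjusted p = 8.39e-11), and 2 of its 4 other probe sets fell. Exo1, the exonuclease of mismatch repair, fell (-4.43 ± 0.28) and Fancd2, of crosslink repair (-3.98 ± 0.30). The calls of Exo1 were lost with the median of its probe sets, those of the other 3 were not. Rad51ap1, Chek1, Exo1 and Fancd2 are all in the division set, as are Brca1 and Brca2, so these falls are not separate from it. Outside that set Polh (-2.64) and Ung (-2.61) passed as lower, while Prkdc (0.01) and Atm (0.33) did not pass.

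Chromatin enzymes moved in opposite directions within a family. Of 25 polycomb and DNA methylation genes 7 rose, 7 fell and 11 did not pass, with a median of -0.14, and 4 rose and 6 fell with the actin covariate. Ezh2, the polycomb methyltransferase of dividing cells, had 167, 145, 129 and 148 in memory cells, against 1639, 1014 and 1486 in germinal center cells (-3.20 ± 0.20, adjusted p = 4.61e-08). Its relative Ezh1 had 362, 232, 359 and 259 in memory cells and 40.4, 105 and 76.8 in germinal center cells (2.11 ± 0.26, adjusted p = 3.8e-05), but 1 of its 3 other probe sets passed in the opposite direction and the median of its probe sets was 0.05. Bmi1, of the other polycomb complex, rose by 2.61 ± 0.23 and Jarid2 by 2.33 ± 0.36. The maintenance methyltransferase gene Dnmt1 had 633, 752, 894 and 761 in memory cells, against 4178, 5663 and 5666 in germinal center cells (-2.76 ± 0.18, adjusted p = 7.37e-08), and its partner Uhrf1 was at least 14.6-fold lower. Tet2, which oxidises methylated cytosine, had 547, 808, 678 and 616 in memory cells and 87.6, 58.8 and 91.1 in germinal center cells (3.08 ± 0.24, adjusted p = 4.03e-07). For Ezh2, Dnmt1 and Tet2 the arrays lay apart by more than 4-fold on the probe sets used. The other Tet2 probe set, above background on all 7 arrays, passed too but rose by only 0.81. Of 13 histone and chromatin protein genes 8 fell, 1 rose and 4 did not pass, with a median of -1.80, and 7 fell with the covariate. H2az1, a histone variant gene, fell (-2.25 ± 0.14) and Hmgb2 (-2.61 ± 0.30). Both belong to the division set, as do Uhrf1 and H3f3b. H3f3b, which encodes a replacement histone, was the member that rose (3.02 ± 0.85), led by memory array 4 at 3101, and its call was lost with the covariate and under 4 other alternatives, among them without germinal center array 3.

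Division genes themselves fell almost throughout, 33 of 34 in mitosis (median -4.43) and 29 of 30 in S phase (median -2.93), with the same counts under the actin covariate. Ncapg, a condensin subunit, had 15.8, 11.8, 10.8 and 20.3 in memory cells, against 2668, 1288 and 1968 in germinal center cells (-7.05 ± 0.25, adjusted p = 2.14e-10). Of 28 mitosis genes with a promoter 23 held the letters TTTGAA on either strand (82.1%), the cell cycle homology element, beside 15.7% of the 14452 genes and 17.9% of all promoters, and 22 held CCAAT (78.6%), beside 42% of the genes and 37.4% of all promoters.

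**Figure D5:**
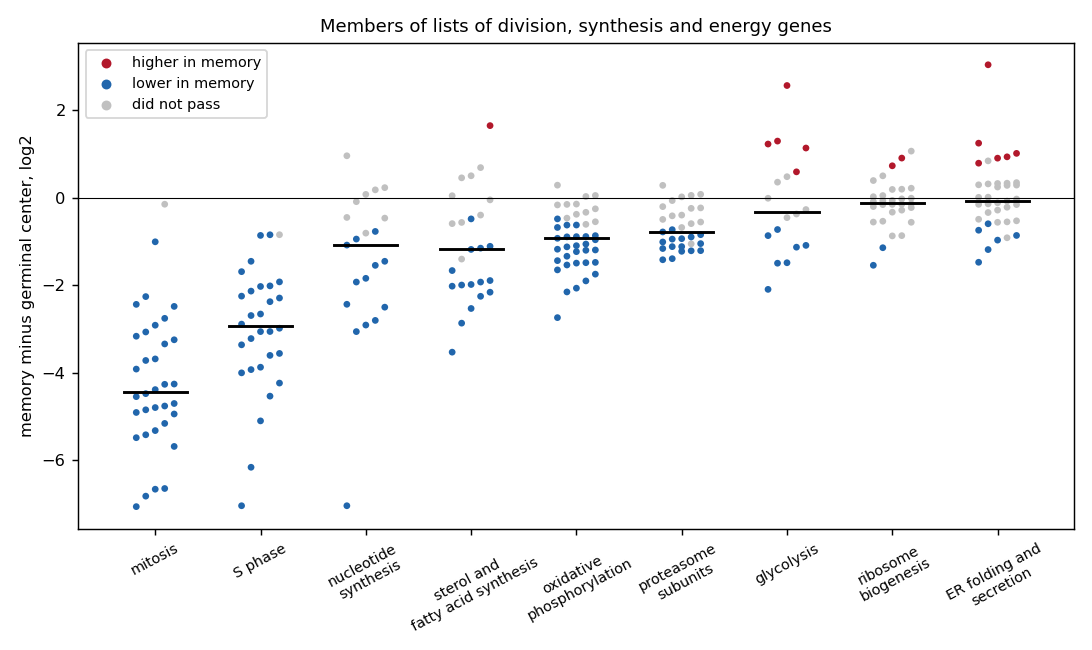
Difference between memory and germinal center cells on the log2 scale for each member of 9 lists, red for higher, blue for lower and grey for genes that did not pass, with a line at the list median. Medians run from -4.43 in mitosis to near 0 in ribosome biogenesis (-0.11) and ER folding (-0.08).

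The supply side of growth was lower in some lists and not in others. Of 21 nucleotide synthesis genes 13 fell and 8 did not pass, with a median of -1.08, and 10 fell with the actin covariate. The ribonucleotide reductase genes and Tyms are shared with the S phase list. Dut, which removes dUTP and is also in the division set, had 148, 149.8, 236 and 273 in memory cells, against 2197, 1048 and 1353 in germinal center cells (-2.91 ± 0.25, adjusted p = 1.21e-06). Outside the division set, the mitochondrial folate enzyme gene Mthfd2 fell (-2.80 ± 0.19). Of 25 sterol and fatty acid synthesis genes 15 fell, 1 rose and 9 did not pass, with a median of -1.18, and 12 fell with the covariate. There were 4 rises without germinal center array 3. Idi1, of isoprenoid synthesis, had 79.5, 27.9, 40.4 and 92.2 in memory cells, against 377, 927 and 674 in germinal center cells (-3.53 ± 0.47, adjusted p = 6.91e-05). The sterol enzyme genes Cyp51 (-2.86 ± 0.21), Fdft1 (-2.53 ± 0.20) and Dhcr7 (-2.25 ± 0.18) fell as well. Scd1, the fatty acid desaturase, rose against the list, with 3521, 4238, 5149.7 and 4313 in memory cells and 1315, 1121 and 1718 in germinal center cells (1.65 ± 0.17, adjusted p = 7.87e-06).

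Of 41 oxidative phosphorylation genes 29 fell, none rose and 12 did not pass, with a median of -0.93, and 14 fell with the actin covariate. Ndufc1, of complex I, had 321, 279, 236 and 265 in memory cells, against 3043, 1904 and 1052 in germinal center cells (-2.74 ± 0.26, adjusted p = 3.23e-06). Cox7a2 (-2.07 ± 0.33) and Cox6c (-1.90 ± 0.26), of complex IV, fell too. The germinal center arrays spread up to 3-fold in these genes, with array 1 highest and array 3 lowest. Of 31 proteasome subunit genes 16 fell and 15 did not pass, with a median of -0.78, and 7 fell with the covariate. Psmd12 had 413, 395, 473 and 554 in memory cells and 1455, 852 and 943 in germinal center cells (-1.21 ± 0.17, adjusted p = 0.000115). Psma1 fell (-1.39 ± 0.23) on the probe set used, while the median of its probe sets was higher in memory cells (0.66, adjusted p = 0.0223).

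Few ribosome biogenesis genes passed, and ER folding and glycolysis held members that rose and members that fell. Of 30 ribosome biogenesis genes 2 rose, 2 fell and 26 did not pass, with a median of -0.11, and none passed with the actin covariate. Rises and falls each made up 6.67% of this list, beside 11.0% and 11.5% of all genes. No member rose without germinal center array 1 or 2. Of 37 ER folding and secretion genes 6 rose, 6 fell and 25 did not pass, with a median of -0.08, and 1 rose and 6 fell with the covariate. Each direction held 16.2% of the ER list, not far from the shares of all genes. Without germinal center array 2, 3 rose and 9 fell. Hsp90b1, an ER chaperone gene, had 1554, 2330.5, 1150.4 and 1704 in memory cells, against 78.1, 235 and 429 in germinal center cells (3.04 ± 0.42, adjusted p = 0.0001), while Fkbp2 fell (-1.47 ± 0.23). Of 18 glycolysis genes 5 rose, 7 fell and 6 did not pass, with a median of -0.32, and 1 rose and 5 fell with the covariate. There were 3 rises without germinal center array 1. The glucose transporter gene Slc2a3 had 794, 854, 1039.9 and 855 in memory cells and 78.4, 164 and 259 in germinal center cells (2.56 ± 0.29, adjusted p = 1.77e-05), while the lactate transporter gene Slc16a1 fell (-2.09 ± 0.35), as did the enzyme genes Pkm (-1.50 ± 0.30) and Tpi1 (-1.48 ± 0.13). Of 31 autophagy and lysosome genes 10 rose, 1 fell and 20 did not pass, with a median of 0.27, and 5 rose with the covariate. Without memory array 1, 3 fell. Psap, a precursor of lysosomal activators, had 1017, 1068, 1596 and 1082 in memory cells, against 185, 93.2 and 183 in germinal center cells (3.00 ± 0.23, adjusted p = 3.23e-07), and Hexa, a lysosomal hexosaminidase gene, rose by 1.98 ± 0.25. Gabarapl2 was the member that fell (-1.90 ± 0.38), lost with the covariate.

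Cytoskeletal genes were higher in memory cells. Of 33 measured actin, annexin and S100 genes 18 rose, 3 fell and 12 did not pass, with a median of 0.60, and 11 rose and 1 fell with the actin covariate. Without germinal center array 2, 5 fell. Capg, which caps actin filaments, had 345, 530.2, 627 and 417 in memory cells, against 19.8, 9.29 and 15.3 in germinal center cells (5.05 ± 0.27, adjusted p = 9.66e-09). Ahnak, a very large scaffold protein gene, had 502, 339, 542 and 496 in memory cells, against 12.7, 16.9 and 9.79 in germinal center cells (5.17 ± 0.23, adjusted p = 1.5e-09), with a naive mean of 57.0. None of the 3 other Ahnak probe sets passed, and the median of its probe sets was -0.027. Cfl1, which severs actin, fell (-0.55 ± 0.13) and Gsn, gelsolin (-1.40 ± 0.31), both lost with the covariate.

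Some early response and stress genes differed widely between single memory arrays. Of 32 measured members 7 rose, 1 fell and 24 did not pass, with a median of 0.64, and 2 rose with the actin covariate. Hspa1b, an inducible heat shock gene whose probes a near-identical copy can share, had 1590.5, 1813, 3415 and 9859 in memory cells, against 261, 91.7 and 74.0 in germinal center cells (4.70 ± 0.76, adjusted p = 0.000389). Memory array 4 was highest, and without it the difference was 4.15 (adjusted p = 0.00103). Ier5 had 1492, 1561, 2038 and 3127 in memory cells and 419, 311 and 358 in germinal center cells (2.45 ± 0.21, adjusted p = 1.19e-06). Myc, the growth factor-induced regulator, passed as higher (0.91 ± 0.30) with overlapping arrays, and differed by -0.066 with the covariate. Gadd45b fell (-1.39 ± 0.30), lost with the covariate.

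Antibody transcripts and plasma cell genes were uneven. The J chain gene Jchain had 37.6, 28.5, 86.3 and 489 in memory cells, against 2027, 1419 and 1678 in germinal center cells (-4.37 ± 0.68, adjusted p = 0.000312), with a naive mean of 10.4. Memory array 4 lay well above the other 3 memory arrays, and without it the difference was -5.22. Igha, of the IgA heavy chain, had 301, 126, 386 and 249 in memory cells and 26.5, 24.7 and 19.4 in germinal center cells (3.40 ± 0.29, adjusted p = 9.31e-07), and both its other probe sets rose. Ighg3 had 221, 305, 351 and 206 in memory cells and 129.8, 71.4 and 98.2 in germinal center cells (1.45 ± 0.25, adjusted p = 0.000768), lost with the actin covariate. Their naive means were 16.2 and 14.9. Ighm, of the IgM that neither sort held in quantity, had 3388, 4416, 5088 and 11706 in memory cells and 6347, 7188 and 9457 in germinal center cells and did not pass (-0.47 ± 0.33, adjusted p = 0.367, 95% interval -1.18 to 0.25). Without memory array 4 Ighm passed as lower (-0.83, adjusted p = 0.021), and 4 of its 10 other probe sets passed as higher, so no direction is given for it. Of 18 plasma cell genes 3 rose, 5 fell and 10 did not pass, with a median of -0.16, and 2 rose and 4 fell with the covariate. Rises made up 16.7% and falls 27.8% of this list, beside 11.0% and 11.5% of all genes. Slamf7 fell (-2.48 ± 0.27) and the protease inhibitor gene Slpi (-1.64 ± 0.26), while Creb3l2 was higher at least 3.30-fold on the probe set used. The other Creb3l2 probe set differed by -0.07 and did not pass.

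Few markers of the cells that the sorts left out passed. Above background on every memory array lay 7 of 19 T cell markers and 8 of 26 myeloid markers, and on every germinal center array 7 and 6 of them. Of 19 T cell markers Cd2 alone passed (2.09 ± 0.34), a call lost with the actin covariate (adjusted p = 0.124), and Cd3d, Cd3g, Cd8b1, Cd247, Cd28 and Gata3 were at background on all 7 arrays. Of 26 myeloid markers Mpeg1 (2.14 ± 0.33) and Tyrobp (2.74 ± 0.44) passed, both lost with the actin covariate, and 10 of the 26, with Cd14, Itgam, S100a8 and S100a9 among them, were at background on all 7. The summed intensity of the myeloid list was 763 to 1227 on memory arrays and 449 to 516 on germinal center arrays, and without Mpeg1 it was 385 to 576 on memory arrays and 355 to 382 on germinal center arrays. That of the T cell list was 562 to 659 on memory arrays and 385 to 476 on germinal center arrays, and without Cd2 it was 273 to 311 on memory arrays and 305 to 377 on germinal center arrays. Of 14 stromal and follicular dendritic markers Cr2 and Fcgr2b passed, which B cells also carry, and the call of Fcgr2b was lost with the covariate (adjusted p = 0.172). The part of other cells in the results was not tested.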

How the data were processed

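Amplified RNA of sorted mouse splenic B cell subsets was hybridised to Affymetrix arrays. The deposited table holds 1 linear intensity per probe set and array, made with RMA, per the submitters' processing notes, which give no version of it. Log2 was taken with no further scaling. Of 45037 probe sets that are not controls, 34945 carry 1 symbol and were used. Of the 18193 genes 9010 have several probe sets, and the brightest over all 14 arrays was taken. Limma 3.58.1 in R 4.3.3 fitted 1 mean per subset (10 residual degrees of freedom, eBayes, two-sided, Benjamini-Hochberg over all genes). The fit was checked on simulated data. Members, the 34 gene lists, named genes and alternatives were chosen with earlier results of these data known. Named genes were the 12 highest and 12 lowest outside division whose arrays did not overlap, the 3 lowest of all, up to 4 called members of each list in each direction, and a set of regulators and surface genes. Genes of the lists with no value here were not analysed here. Bounds set the brighter subset's mean against, per array, the higher of background and the signal. Deviations of same-numbered memory and germinal center arrays had correlations of -0.22, -0.03 and 0.10, and numbers were not used as pairs. Differently numbered arrays gave correlations between -0.26 and 0.31. With so few arrays these values cannot show whether the numbers pair them. Alternatives covered scaling, filter, floor, gene unit, variance model, arrays, actin ratio and replicate block. The number of arrays limits the precision. Tables and plots were made in Python 3.11.15 with pandas 2.3.3 and matplotlib 3.10.9.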

Additional observations from a re-analysis of the deposited data

Results flagged for a closer look

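In 7 named genes 1 memory array stood apart from the other 3 by Dixon's criterion for 4 arrays. Memory array 2 was lowest for Cd2 (271, the others 348 to 359) and for Lmo2 (4962, the others 5774 to 5888). Memory array 1 was lowest for Psma2 (368, the others 517 to 554) and for Tlr2 (39.2, the others 65.7 to 72.0). Memory array 3 was highest for Pfkp (525, the others 334 to 354) and for Psap (1596, the others 1017 to 1082), and memory array 4 was highest for Hells (86.1, the others 36.4 to 40.3). These 7 are 3.65% of the 192 named genes, beside 5.60% of all genes, and chance gives about 5%. In each of them the value stayed on its own side of every germinal center array.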

How the results depend on the processing

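The number of genes that passed, 4084, lay between 3207 (floor of 16) and 4406 (without germinal center array 3) under all alternatives but the actin ratio as a covariate, which gave 1779 genes, 35.6% of them higher in memory cells. With arrays centred on their median 56.5% were higher. Leaving out single arrays gave 3469 to 4406 genes. Of 183 named genes that passed, the covariate ended the call of 58 and reversed Myc (-0.066). With the median of all probe sets Ahnak (-0.027), Dnajc3 (-0.35), Pfkp (0.20), Psma1 (0.66) and Ighm (1.02), which had not passed, turned sign. With the replicate block, which treats arrays of the same number as a block, 3794 genes passed. Depth of signal limits 386 of the 4084 genes, for which only a bound on the fold can be given.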
